A study of Homo sapiens with 16 samples.

Results

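The mitochondrial respiratory chain passes electrons from succinate through complex II to ubiquinone, from ubiquinol through complex III to cytochrome c, and from cytochrome c through complex IV to oxygen. The ATP synthase, complex V, uses the proton gradient built on the way to make ATP. Complexes III, IV and V are assembled from proteins encoded in nuclear and in mitochondrial DNA, while complex II is encoded in nuclear DNA alone. The genes described here are the nuclear ones of complexes II to V, chosen by name from a fixed list of 39 symbols. All 39 were found among the 35106 gene rows of the count table. They comprise 4 genes of complex II, 9 of complex III, the gene of cytochrome c, 10 of complex IV and 15 of complex V.

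RNA was sequenced from 2 human breast adenocarcinoma lines, each established from a pleural effusion. MDA-MB-231 lacks hormone receptors and HER2 amplification, and SKBR3 carries an amplified ERBB2 gene. The groups were MDA-MB-231 cells given 500 nM MitoQ for 48 h (n = 5), MDA-MB-231 control cells (n = 5), SKBR3 cells given the same dose for the same time (n = 3) and SKBR3 control cells (n = 3). MitoQ is a ubiquinone joined to a triphenylphosphonium cation that draws it into mitochondria. All MDA-MB-231 libraries were from passage 25 and all SKBR3 libraries from passage 10, so effects of line and of passage cannot be told apart, and each line stands for itself only. The sources used here do not say what control cells received or whether replicates were separate cultures, so p-values measure the spread between these libraries, which may be technical.

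The totals of estimated counts lay between 19844695 and 25904852 for MDA-MB-231 with MitoQ, 23612986 and 29294865 for MDA-MB-231 control, 19157771 and 27739692 for SKBR3 with MitoQ, and 14723152 and 27841144 for SKBR3 control libraries. The line markers followed the labels. ERBB2 averaged 54.2 CPM (counts scaled to a common library size) in MDA-MB-231 controls and 5327 CPM in SKBR3 controls, and VIM averaged 3409 CPM in MDA-MB-231 controls and 0.179 CPM in SKBR3 controls. Of the 8 SKBR3 markers 7 were lower in MDA-MB-231 controls, and CDH1 was low in both lines at 2.57 and 2.76 CPM. On the first principal component of the 6 SKBR3 libraries, the MitoQ libraries lay between 10.8 and 15.7, SKBR3 control 3 at -6.76, and the other controls at -17.2 and -16.5. In counts over all genes, MDA-MB-231 MitoQ 2 stood apart from its group (chi-square per degree of freedom 14.8 to 19.6 against the other MitoQ libraries, which were at 3.14 to 10.8 among themselves). Counts of members called are therefore also given without these libraries.

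In MDA-MB-231 cells given MitoQ, 32 of the 39 subunit mRNAs fell at an adjusted p under 0.05 and none rose. Of all 15304 genes tested, 27.6% were called lower and 29.9% higher. The median log2 fold change of the subunit mRNAs was -0.36, against 0.012 over all genes tested. The falls were led by 4 genes, the ATP synthase genes ATP5MC1, ATP5MF and ATP5MC3 and the complex IV gene COX7B. ATP5MC1 was the only member past a 2-fold change. No member was higher at an unadjusted p under 0.05 either (0 in edgeR), and DESeq2 and limma voom called 0 higher as well. Without MDA-MB-231 MitoQ 2, 32 members were again lower and 0 higher, with a median of -0.34. In 31 members every MitoQ library lay below every control library, which was so for 22.9% of all genes tested. In bulk RNA, a lower share of a transcript in the same number of cells and less of it in fewer cells cannot be told apart.

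**Figure D1:**
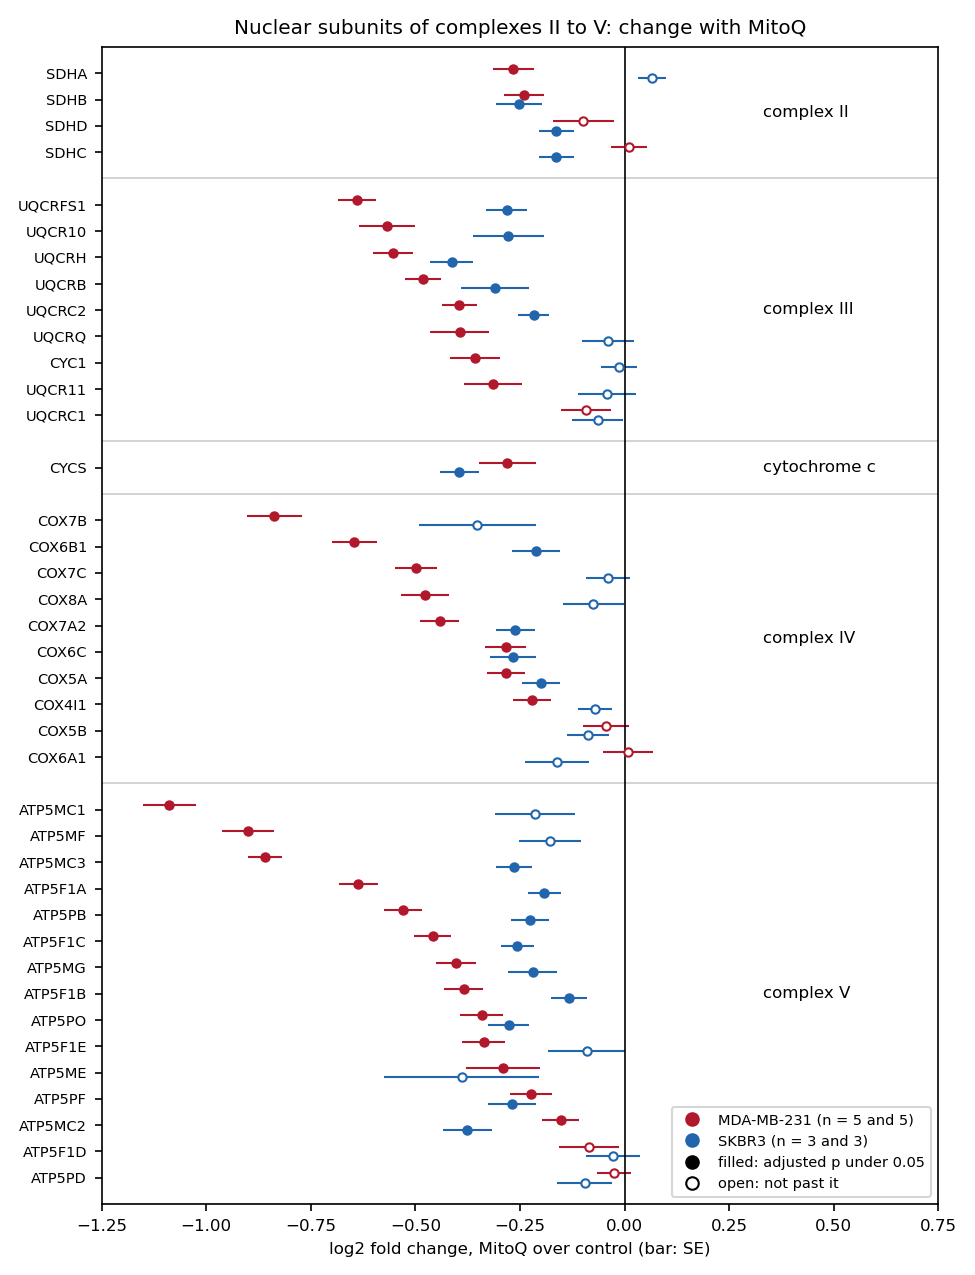
Log2 fold change of each subunit mRNA, MitoQ over control, in MDA-MB-231 (red) and SKBR3 (blue), grouped by complex. Bars are the SE, filled points passed an adjusted p of 0.05, and the red points reach -1.09 at ATP5MC1 while the blue points stay between -0.41 and 0.065.

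In SKBR3 cells given MitoQ, 22 of the 39 members fell and none rose. Of 15026 genes tested there, 14.1% were called lower and 13.8% higher. The median log2 fold change was -0.21, against -0.00064 over all genes tested. With n = 3 per group here and n = 5 in MDA-MB-231, the counts of members called in the lines are not on equal terms. Of the 22, 20 had also fallen in MDA-MB-231, and the other 2 were the complex II anchors SDHC and SDHD, for which the difference between the lines did not pass its own test (adjusted p = 0.130 and 0.929). In 21 members all MitoQ libraries lay below all controls, which held for 18.7% of all genes, and in 1 member, SDHA, they lay above, which held for 21.3%. None was higher at an unadjusted p under 0.05 (0 in edgeR), nor in DESeq2 or limma voom (0 each). Of the 22 calls 14 held in each of 16 other settings with the same threshold and no minimum change. Leaving out 1 library at a time, the members lower numbered 15 without MitoQ 1 or without MitoQ 2, 21 without control 1 or without control 2, and 22 without control 3 or without MitoQ 3. Over all genes, 2126 were called lower, against 1107 without MitoQ 2, 1383 without control 2 and 1427 without MitoQ 1. Tested against a 1.2-fold change in place of no change, 19 members passed in MDA-MB-231 and 2 in SKBR3.

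The normalised counts of all 39 genes, added up, were 4403, 4353, 4783, 4726 and 4713 CPM in the MDA-MB-231 MitoQ libraries, against 6227, 5977, 6213, 5874 and 6287 CPM in control libraries of that line. The highest MitoQ library lay below the lowest control, and the mean sum fell by 24.8%. In SKBR3 the sums were 5568, 5786 and 6074 CPM with MitoQ, against 6814, 6232 and 6416 CPM in controls. These groups did not overlap either, and the mean sum fell by 10.4%. By complex, the mean sum in MDA-MB-231 changed by -28.4% for complex V, -25.4% for complex III, -22.0% for complex IV, -18.9% for cytochrome c and -11.0% for complex II. In SKBR3 the change was -22.8% for cytochrome c, -11.5% for complex III, -10.3% for complex V, -9.50% for complex IV and -3.52% for complex II. The SKBR3 groups overlapped for complex IV (1147 to 1275 CPM with MitoQ, 1260 to 1459 CPM in controls). They also overlapped for complex II (634 to 666 CPM with MitoQ, 662 to 687 CPM in controls). Sums weigh abundant mRNAs most and are given without a test.

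**Figure D2:**
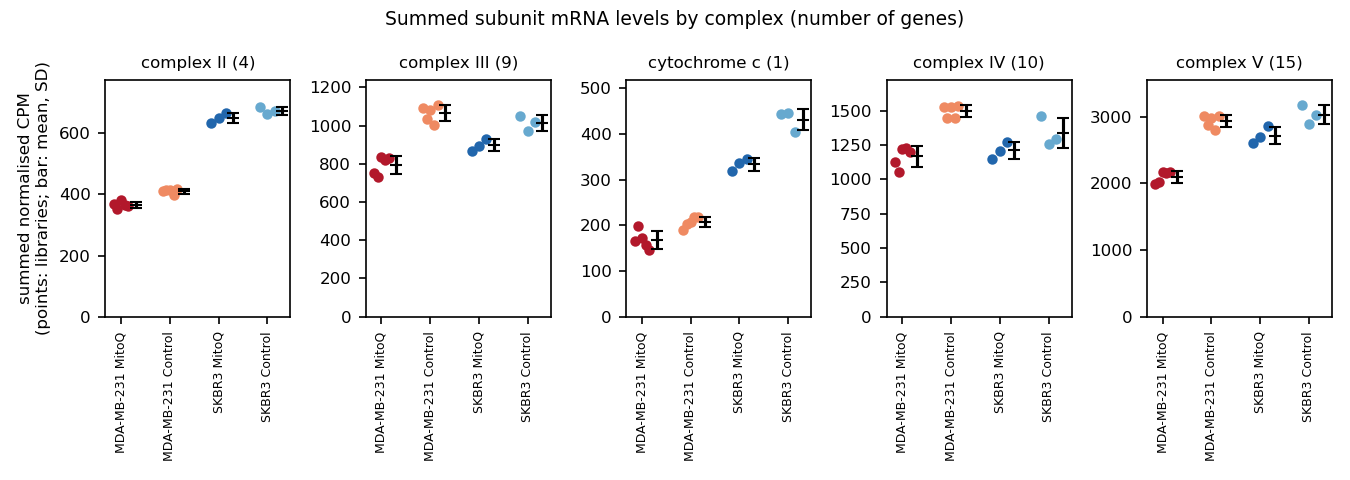
Summed normalised CPM of the genes of each complex in every library, with group mean and SD beside the points, for MDA-MB-231 (red, MitoQ left of control) and SKBR3 (blue, MitoQ left of control). In complexes II, III, IV and V the MDA-MB-231 MitoQ libraries form a separate lower group, at 1988 to 2174 CPM against 2805 to 3010 CPM for complex V. The gap is narrower for complex II (353 to 382 CPM against 397 to 417 CPM), and the MDA-MB-231 groups overlap for cytochrome c. In SKBR3 the groups overlap for complexes II and IV.

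Complex II oxidises succinate in the citric acid cycle and moved least of the complexes in MDA-MB-231, with 2 of 4 members lower. SDHA (chromosome 5, 218241 to 256700, GRCh38), the flavin-bearing catalytic subunit, had 140, 123, 136, 141 and 143 CPM in MDA-MB-231 MitoQ libraries, against 168, 175, 169, 157 and 163 CPM in controls. All MitoQ libraries were below all controls (log2 fold change -0.27 ± 0.048 SE, adjusted p = 0.000109). SKBR3 libraries had 292, 299 and 302 CPM with MitoQ, against 275, 278 and 287 CPM in controls. There the order was the other way round, with each MitoQ library above each control, but the difference did not pass the test (0.065 ± 0.034, adjusted p = 0.179). SDHA has 3 rows of pseudogenes named after it that together held 20.6% as many counts as the gene itself, and 18.4% of its 31-base stretches occur in transcripts of other genes, so its counts are less certain than those of most members.

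SDHB, the iron-sulphur subunit, fell by nearly the same amount in the 2 lines, -0.24 ± 0.047 in MDA-MB-231 and -0.25 ± 0.055 in SKBR3 (adjusted p = 0.000224 and 0.00342). SDHC (chromosome 1, 161314257 to 161375340), a membrane anchor that helps bind ubiquinone and heme, had 129, 123, 137, 126 and 121 CPM in MDA-MB-231 MitoQ libraries, against 129, 126, 128, 127 and 130 CPM in controls. These groups overlapped throughout. The SKBR3 values were 201, 204 and 214 CPM with MitoQ, against 240, 223 and 219 CPM in controls, a log2 fold change of -0.16 ± 0.043 (adjusted p = 0.0107) without overlap. This call was lost without SKBR3 control 1 (adjusted p = 0.0535), without SKBR3 MitoQ 1 (adjusted p = 0.0656) and without SKBR3 MitoQ 2 (adjusted p = 0.0979). The other anchor, SDHD, was at -0.099 ± 0.073 in MDA-MB-231 (adjusted p = 0.261 in edgeR and 0.0355 in limma voom, which called it lower) and fell by 0.16 ± 0.042 on the log2 scale in SKBR3 (adjusted p = 0.00953). The SDHD call was lost without SKBR3 control 2 (adjusted p = 0.0551), without SKBR3 MitoQ 1 (adjusted p = 0.0789) and without SKBR3 MitoQ 2 (adjusted p = 0.0512).

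In complex III, which hands electrons from ubiquinol to cytochrome c, 8 of 9 members fell in MDA-MB-231 and 5 in SKBR3, with medians of -0.39 and -0.22. UQCRFS1 (chromosome 19, 29205321 to 29213541), the Rieske iron-sulphur protein, had the smallest p of the complex in MDA-MB-231. It had 46.0, 45.7, 49.3, 48.7 and 44.6 CPM in MitoQ libraries, against 77.2, 71.3, 76.0, 71.8 and 74.3 CPM in controls. The groups lay far apart (-0.64 ± 0.046, adjusted p = 8.34e-10), a 1.56-fold fall. In SKBR3 UQCRFS1 had 93.5, 92.5 and 106 CPM with MitoQ, against 120, 112 and 116 CPM in controls, also without overlap (-0.28 ± 0.049, adjusted p = 0.00075).

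UQCRH (chromosome 1, 46303631 to 46316776), the acidic hinge protein at the site where cytochrome c docks, showed the largest fall of any member in SKBR3. It had 150, 161 and 158 CPM in SKBR3 MitoQ libraries, against 224, 197 and 196 CPM in SKBR3 controls. No value overlapped (-0.41 ± 0.051, adjusted p = 7.43e-05). In MDA-MB-231 it had 89.6, 82.9, 87.7, 87.0 and 81.7 CPM with MitoQ, against 129, 121, 126, 123 and 140 CPM in controls (-0.55 ± 0.048, adjusted p = 1.01e-08), again without overlap. Of its 31-base stretches, 25.1% occur in transcripts of other genes.

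The remaining members of complex III divided by line. The core protein gene UQCRC2 and the small subunit genes UQCRB and UQCR10 fell in both lines, by 0.39, 0.48 and 0.57 on the log2 scale in MDA-MB-231. In SKBR3 UQCRC2 was at -0.22 ± 0.037, UQCRB at -0.31 ± 0.081 and UQCR10 at -0.28 ± 0.085. There the groups of UQCR10 overlapped (54.4 to 62.2 CPM with MitoQ, 59.3 to 76.9 CPM in controls). The SKBR3 call of UQCRB was lost without SKBR3 MitoQ 1 (adjusted p = 0.0693), and that of UQCR10 when any 1 of 4 SKBR3 libraries, controls 1 and 3 and MitoQ 1 and 2, was left out (adjusted p = 0.0609 to 0.159). The gene of cytochrome c1, CYC1, and the small subunit genes UQCRQ and UQCR11 fell in MDA-MB-231 (-0.36 ± 0.059, -0.39 ± 0.071 and -0.31 ± 0.069) and were at -0.014, -0.039 and -0.041 in SKBR3, where their groups overlapped. The other core protein gene, UQCRC1, passed the test in neither line, at -0.092 ± 0.059 in MDA-MB-231 and -0.064 ± 0.060 in SKBR3.

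CYCS (chromosome 7, 25120091 to 25125361) codes for cytochrome c, the soluble electron carrier between complexes III and IV that is also known for its role in apoptosis. It had 319, 336 and 345 CPM in SKBR3 MitoQ libraries, against 444, 447 and 404 CPM in SKBR3 controls. The groups were apart, and the log2 fold change was -0.39 ± 0.047 (adjusted p = 4.19e-05). In MDA-MB-231 it had 166, 198, 173, 158 and 146 CPM with MitoQ, against 191, 202, 207, 218 and 219 CPM in controls (-0.28 ± 0.069, adjusted p = 0.00211). Here MitoQ 2 lay above control 1, and CYCS was the single called member whose groups overlapped in MDA-MB-231. CYCS has 40 pseudogene rows, which together held 0.383% as many counts as the gene.

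Complex IV, cytochrome c oxidase, reduces oxygen to water, and its nuclear subunits surround a core made in mitochondria. Of its 10 members 8 fell in MDA-MB-231 and 4 in SKBR3, with medians of -0.36 and -0.18. COX7B (chromosome X, 77899438 to 77907373), a small membrane subunit, had the smallest p and the largest fall of the complex in MDA-MB-231. It had 50.4, 42.1, 51.2, 50.6 and 52.8 CPM in MitoQ libraries, against 94.2, 81.0, 93.1, 81.0 and 98.7 CPM in controls. Every MitoQ library was well below every control (-0.84 ± 0.065, adjusted p = 3.14e-09), a 1.79-fold fall. In SKBR3 COX7B had 111, 120 and 120 CPM with MitoQ, against 178, 129 and 134 CPM in controls. Control 1 stood high there, and the difference did not pass the test (-0.35 ± 0.14, adjusted p = 0.141), although it did without control 1 (-0.19, adjusted p = 0.00704).

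COX6A1 (chromosome 12, 120438090 to 120440742), the widely expressed isoform of subunit VIa, stood at the opposite end of the complex. It had 162, 155, 192, 182 and 194 CPM in MDA-MB-231 MitoQ libraries, against 190, 174, 186, 168 and 176 CPM in controls. The groups overlapped (0.0081 ± 0.059, adjusted p = 0.921). In SKBR3 COX6A1 had 80.7, 78.5 and 88.8 CPM with MitoQ, against 103, 85.0 and 85.1 CPM in controls, also with overlap (-0.16 ± 0.077, adjusted p = 0.156). The zinc-binding subunit gene COX5B was the other member of complex IV that passed the test in neither line, at -0.045 ± 0.055 in MDA-MB-231 and -0.088 ± 0.051 in SKBR3.

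COX6B1, on the face of the enzyme towards the intermembrane space, fell in both lines (-0.65 ± 0.053 in MDA-MB-231 and -0.21 ± 0.057 in SKBR3), as did COX5A, COX6C and COX7A2. COX6C fell by nearly the same amount in both, -0.28 ± 0.049 in MDA-MB-231 and -0.27 ± 0.055 in SKBR3. COX7C and COX8A fell in MDA-MB-231 (-0.50 ± 0.051 and -0.48 ± 0.058) and were at -0.040 ± 0.053 and -0.075 ± 0.073 in SKBR3. COX4I1, the widely expressed isoform of subunit IV, fell in MDA-MB-231 by 0.22 ± 0.046 on the log2 scale (adjusted p = 0.000362) and was at -0.071 ± 0.042 in SKBR3. The SKBR3 call of COX6B1 was lost without SKBR3 MitoQ 1 or 2 and that of COX5A without SKBR3 MitoQ 2 (adjusted p up to 0.090 and 0.0613). COX8A shared the most sequence of all members, as 30.6% of its 31-base stretches recur in transcripts of other genes. The span of COX6C, introns included, overlaps that of the highly counted gene VPS13B on the opposite strand. Whether their exons overlap was not checked. Reads from a shared stretch of exon could be told apart only if the counting used strand, on which the sources used here are silent.

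Complex V held the largest falls. In MDA-MB-231 13 of its 15 members fell and in SKBR3 9, with medians of -0.38 and -0.22. The rotating ring of the enzyme is made of copies of subunit c, and 3 nuclear genes, ATP5MC1, ATP5MC2 and ATP5MC3, code for the same mature protein behind different mitochondrial targeting sequences. ATP5MC1 (chromosome 17, 48892765 to 48895871) had 30.9, 34.3, 36.4, 35.7 and 39.2 CPM in MDA-MB-231 MitoQ libraries, against 81.8, 72.3, 78.0, 68.2 and 80.1 CPM in controls. The highest treated library was far below the lowest control (-1.09 ± 0.063, adjusted p = 3.44e-11), a 2.13-fold fall. In SKBR3 ATP5MC1 had 35.7, 41.6 and 41.5 CPM with MitoQ, against 50.9, 37.8 and 46.6 CPM in controls, with overlap (-0.21 ± 0.095, adjusted p = 0.130). Without SKBR3 control 2, the lowest control, ATP5MC1 passed the test there (-0.29, adjusted p = 0.0169).

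ATP5MC3 (chromosome 2, 175176258 to 175184607) had 82.2, 83.5, 89.3, 87.4 and 84.9 CPM in MDA-MB-231 MitoQ libraries, against 160, 150, 156, 161 and 161 CPM in controls. The spread within each group was small beside the distance between them (-0.86 ± 0.041, adjusted p = 1.89e-12, the smallest of all members). In SKBR3 ATP5MC3 had 134, 137 and 143 CPM with MitoQ, against 173, 157 and 160 CPM in controls (-0.26 ± 0.043, adjusted p = 0.000462), without overlap. ATP5MC2 (chromosome 12, 53632726 to 53677408) showed the reverse order of the lines. It had 102, 103, 98.4, 110 and 110 CPM in MDA-MB-231 MitoQ libraries, against 121, 119, 120, 116 and 115 CPM in controls (-0.15 ± 0.043, adjusted p = 0.00547). In SKBR3 it had 46.8, 47.4 and 47.5 CPM with MitoQ, against 60.2, 65.3 and 56.6 CPM in controls (-0.38 ± 0.058, adjusted p = 0.000336). Neither line showed overlap, but when libraries were scaled to plain totals ATP5MC2 no longer passed the test in MDA-MB-231 (adjusted p = 0.0570), the only one of the 32 calls there lost in any of 21 other settings with the same threshold and no minimum change.

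Levels per length of transcript allow the 3 genes to be set side by side. In MDA-MB-231, ATP5MC2 made up 41.1% to 44.8% of the summed CPM per kilobase of the 3 genes with MitoQ and 29.5% to 32.0% in controls. The share of ATP5MC1 was 20.4% to 23.6% with MitoQ and 27.5% to 30.95% in controls, and that of ATP5MC3 32.6% to 36.0% with MitoQ and 38.7% to 41.6% in controls. No share overlapped between MDA-MB-231 groups. In SKBR3 ATP5MC3 led with 54.6% to 56.2% with MitoQ and 54.9% to 55.3% in controls, and the shares of all 3 genes overlapped between the groups. The plain CPM of the 3 genes together was 215 to 234 with MitoQ and 341 to 362 in controls of MDA-MB-231, and 216 to 232 with MitoQ and 260 to 284 in controls of SKBR3.

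**Figure D3:**
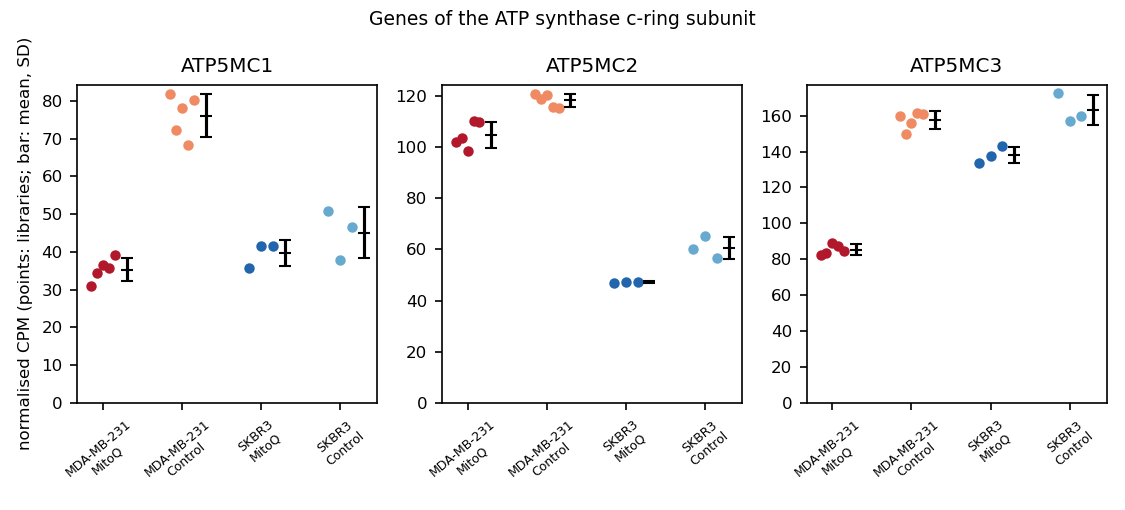
Normalised CPM of the 3 genes of the ATP synthase c subunit in every library (points) with group mean and SD (bars), MitoQ left of control in each line. ATP5MC1 and ATP5MC3 show separate groups in MDA-MB-231, with means of 35.3 against 76.1 CPM and 85.5 against 158 CPM, while ATP5MC2 differs less there, with means of 105 against 118 CPM.

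The stretches before the start sites of ATP5MC1, COX7B and COX6A1 are shown because ATP5MC1 had the largest fall in MDA-MB-231, COX7B the fourth-largest, and COX6A1 did not pass the test in either line; they were chosen after their values were seen. Each is the 250 bases before the start given by RefSeq on GRCh38.p14, plus strand, 5′ to 3′, at chr17:48892537-48892786 (ATP5MC1), chrX:77899218-77899467 (COX7B) and chr12:120437863-120438112 (COX6A1). Capitals mark matches on either strand to a cAMP response element (CRE, TGACGTCA), an ETS site (CCGGAAG), or a CCAAT box (CCAAT).
ATP5MC1: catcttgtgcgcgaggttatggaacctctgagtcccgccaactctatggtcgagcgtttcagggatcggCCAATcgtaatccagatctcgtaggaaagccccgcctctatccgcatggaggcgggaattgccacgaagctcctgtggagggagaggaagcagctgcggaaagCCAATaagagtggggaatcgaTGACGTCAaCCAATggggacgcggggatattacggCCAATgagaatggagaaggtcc
COX7B: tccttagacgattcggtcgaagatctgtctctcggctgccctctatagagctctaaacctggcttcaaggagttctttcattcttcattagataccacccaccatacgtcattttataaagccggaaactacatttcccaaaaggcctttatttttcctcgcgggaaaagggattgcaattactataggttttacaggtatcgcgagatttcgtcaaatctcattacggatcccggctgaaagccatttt
COX6A1: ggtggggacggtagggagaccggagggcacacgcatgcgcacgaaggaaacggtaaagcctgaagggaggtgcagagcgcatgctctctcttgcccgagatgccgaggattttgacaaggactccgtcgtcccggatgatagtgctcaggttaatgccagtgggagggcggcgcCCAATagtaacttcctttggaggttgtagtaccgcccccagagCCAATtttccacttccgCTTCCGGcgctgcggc

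In the printed stretch of ATP5MC1 there were 1 CRE and 4 CCAAT boxes, in that of COX7B none of the motifs, and in that of COX6A1 1 ETS site and 2 CCAAT boxes. Windows that run on to 50 bases after the start, not printed, also hold 1 CCAAT box for COX7B and a YY1 match for COX6A1. A window of 300 bases, from 250 before to 50 after the start, was available for 31 of the 39 members and for 27305 genes in all. These genes were not limited to those expressed here, while all members passed the expression filter, so the shares compare unlike sets. In these windows the NRF1 motif, GCGCA and GCGC with any 1 base between them, was found in 29% of the members and 6.98% of all genes, and the ETS site in 48.4% and 12.2%. The YY1 motif ANATGGCGG was found in 19.4% of the members and 3.31% of all genes, the CRE in 9.68% and 2.25%, and the CCAAT box in 41.9% and 39.7%. Windows with at least 4 CCAAT boxes were found for 1.2% of all genes, among them ATP5MC1 and ATP5F1E. Both strands were searched, and no matches overlap each other in the printed stretches. For members with and without a match, the median log2 fold change in MDA-MB-231 was -0.31 and -0.39 (NRF1), -0.29 and -0.42 (ETS), and -0.16 and -0.39 (YY1). It was -0.29 and -0.37 for the CRE, which only 3 members held, and -0.39 and -0.33 for the CCAAT box. In SKBR3 the pairs were, in the same order, -0.26 and -0.21, -0.16 and -0.24, -0.21 and -0.21, -0.25 and -0.21, and -0.22 and -0.20. A link of motif and change was not tested. A match describes letters in a window and not the binding of a factor.

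In the membrane part of complex V next to the ring, the genes of the subunits f, g and e, ATP5MF, ATP5MG and ATP5ME, fell in MDA-MB-231. ATP5MF (chromosome 7, 99448475 to 99466331) had 60.1, 53.0, 57.6, 66.9 and 68.7 CPM in MDA-MB-231 MitoQ libraries, against 118, 108, 119, 111 and 125 CPM in controls. The groups were far apart (-0.90 ± 0.062, adjusted p = 4.8e-10), a 1.86-fold fall. In SKBR3 it had 215, 218 and 230 CPM with MitoQ, against 278, 234 and 226 CPM in controls. There the groups overlapped and the test was not passed (-0.18 ± 0.073, adjusted p = 0.108), but DESeq2 and limma voom called it lower, as did edgeR without SKBR3 control 3 (-0.23, adjusted p = 0.010). ATP5MF overlaps PTCD1 and a readthrough gene of both on the same strand, which held 24.1% and 4.26% as many counts as ATP5MF, and CPSF4 on the opposite strand, which held 29.1%. How reads were divided among these genes cannot be seen from the counts.

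ATP5ME (chromosome 4, 672436 to 674338), whose product helps hold dimers of the enzyme together, had the third-largest difference in SKBR3 and the widest error. It had 26.4, 29.1 and 25.3 CPM in SKBR3 MitoQ libraries, against 44.4, 32.2 and 28.7 CPM in SKBR3 controls. Control 1 stood high, control 3 lay within the MitoQ range, and the test was not passed (-0.39 ± 0.19, adjusted p = 0.195), though it was without control 3 (-0.53, adjusted p = 0.0334). In MDA-MB-231 ATP5ME had 40.1, 27.9, 35.8, 41.5 and 39.6 CPM with MitoQ, against 44.7, 43.8, 47.8, 41.9 and 51.4 CPM in controls (-0.29 ± 0.089, adjusted p = 0.0105), with a narrow gap between the groups. ATP5MG fell in both lines, -0.40 ± 0.048 in MDA-MB-231 and -0.22 ± 0.059 in SKBR3, and its SKBR3 call was lost without SKBR3 MitoQ 1 or without SKBR3 MitoQ 2 (adjusted p up to 0.0894).

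The catalytic head of the ATP synthase is built from the subunits alpha to epsilon. ATP5F1A (alpha) had 358, 348, 399, 378 and 377 CPM in MDA-MB-231 MitoQ libraries, against 615, 579, 602, 551 and 586 CPM in controls, without overlap (-0.64 ± 0.046, adjusted p = 9.78e-10). In SKBR3 it had 235, 246 and 258 CPM with MitoQ, against 285, 266 and 280 CPM in controls (-0.19 ± 0.039, adjusted p = 0.00228), also without overlap. ATP5F1B, the catalytic beta subunit and the most abundant of the 39 mRNAs by CPM in all groups, fell in MDA-MB-231 to 526 ± 25.8 CPM with MitoQ, against 697 ± 28.6 CPM in controls (SD, n = 5 each). In SKBR3 it was at 947 ± 53.9 CPM with MitoQ and 1023 ± 46.8 CPM in controls (SD, n = 3 each). These groups overlapped (901 to 1006 CPM with MitoQ, 989 to 1076 CPM in controls). The log2 fold change was -0.13 ± 0.042 (adjusted p = 0.0294). This call was lost when any 1 of control 2, control 3, MitoQ 1 and MitoQ 2 was left out (adjusted p = 0.0926 to 0.219).

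ATP5F1C, the gamma subunit of the rotor shaft, fell in both lines (-0.46 ± 0.045 in MDA-MB-231 and -0.26 ± 0.040 in SKBR3). ATP5F1E, the epsilon subunit, fell in MDA-MB-231 (-0.34 ± 0.051) and was at -0.091 ± 0.091 in SKBR3, while ATP5F1D, the delta subunit, passed the test in neither line (-0.085 ± 0.072 in MDA-MB-231 and -0.028 ± 0.065 in SKBR3), although ATP5F1D did in MDA-MB-231 without MitoQ 5 (adjusted p = 0.0433). Of the peripheral stalk, which keeps the head from turning, ATP5PB, ATP5PF and ATP5PO fell in both lines. Their log2 fold changes were -0.53 ± 0.045, -0.22 ± 0.049 and -0.34 ± 0.051 in MDA-MB-231 and -0.23 ± 0.046, -0.27 ± 0.058 and -0.28 ± 0.049 in SKBR3. The fourth stalk gene, ATP5PD, was at -0.025 ± 0.041 in MDA-MB-231 and -0.095 ± 0.066 in SKBR3 and passed in neither. The spans of SDHD, ATP5PB, ATP5PD, ATP5PF, ATP5MF, COX4I1, ATP5ME and ATP5F1A also overlap those of genes on the opposite strand. The most counted such gene held from 7.41% (HAUS1, beside ATP5F1A) to 60.6% (GABPA, beside ATP5PF) as many counts as the member. The limit given for COX6C holds for them too.

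Whether the effect of MitoQ differed between the lines was tested with the interaction of line and treatment over all 16 libraries. In 22 of the 39 members the change was lower, that is more negative, in MDA-MB-231 than in SKBR3, and in none was it higher, against 19.1% of 17094 genes lower and 14.9% higher. The median difference was -0.22 over the members and -0.034 over all genes. It was below 0 in 31 members and above 0 in 8, and below 0 in 53.4% of all genes. The 16 libraries were filtered and scaled together, so these differences do not equal those between the changes given per line. In this joint fit the all-gene medians were -0.0030 in MDA-MB-231 and 0.021 in SKBR3, against 0.012 and -0.00064 in the fits per line. The lowest p belonged to ATP5MC3 (difference -0.64 ± 0.064, adjusted p = 4.04e-08), ATP5MC1 (-0.92 ± 0.12, adjusted p = 4.64e-06) and ATP5MF (-0.76 ± 0.11, adjusted p = 7.94e-06), followed by ATP5F1A (-0.49 ± 0.071). By complex the difference was called for SDHA in complex II, for 6 of 9 members of complex III, for 6 of 10 of complex IV and for 9 of 15 of complex V, and not for CYCS (0.069 ± 0.10, adjusted p = 0.657). Among the 12 members that passed the test in MDA-MB-231 and not in SKBR3, the difference itself passed for 11; the exception was ATP5ME (0.061 ± 0.20, adjusted p = 0.871). Of these 11, UQCR11 (adjusted p = 0.0488) was called in 10 of 25 other settings, COX4I1 (adjusted p = 0.0400) in 12 and ATP5F1E (adjusted p = 0.0289) in 20. With the replicate number as a block COX4I1 was not called (adjusted p = 0.0613). Of the members called in both lines, UQCR10 and ATP5MG were each called in the interaction in 14 of the 25.

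On the other side, the smallest p belonged to ATP5MC2, whose change was more negative in SKBR3 (0.18 ± 0.072, adjusted p = 0.0524), SDHC (0.13 ± 0.065, adjusted p = 0.130) and COX6A1 (0.13 ± 0.11, adjusted p = 0.409). ATP5MC2 was the 1 member higher at an unadjusted p under 0.05. DESeq2 called 1 member higher and limma voom called 2. ATP5MC2 was called higher in 8 of 25 other settings. These were plain library totals (0.28, adjusted p = 0.00435), limma voom (adjusted p = 0.0124), a filter at 1 CPM (adjusted p = 0.0246), DESeq2 (adjusted p = 0.0273), mitochondrial mRNAs left out (adjusted p = 0.0364) and RLE size factors (adjusted p = 0.0392). The call was also made when MDA-MB-231 MitoQ 3 was left out (adjusted p = 0.0361) or SKBR3 control 3 (adjusted p = 0.0249). Of the 22 members lower in the interaction, 13 were called in each of 25 other settings with the same threshold and no minimum change, and leaving out single libraries gave 15 to 24 members lower. The count also moved with the scaling of libraries. With plain library totals 14 members were lower and 2 higher, and over all genes 3446 were called higher and 2458 lower, in place of 2554 higher and 3269 lower as scaled here. Members lower numbered 17 with mitochondrial mRNAs left out and 18 with RLE size factors. They numbered 19 with DESeq2, with no filter and with a filter at 1 CPM, and 23 with limma voom. Across the 39 members the log2 fold changes of the 2 lines had a Spearman coefficient of 0.32 and a Pearson coefficient of 0.29, as a description over genes that share their libraries.

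**Figure D4:**
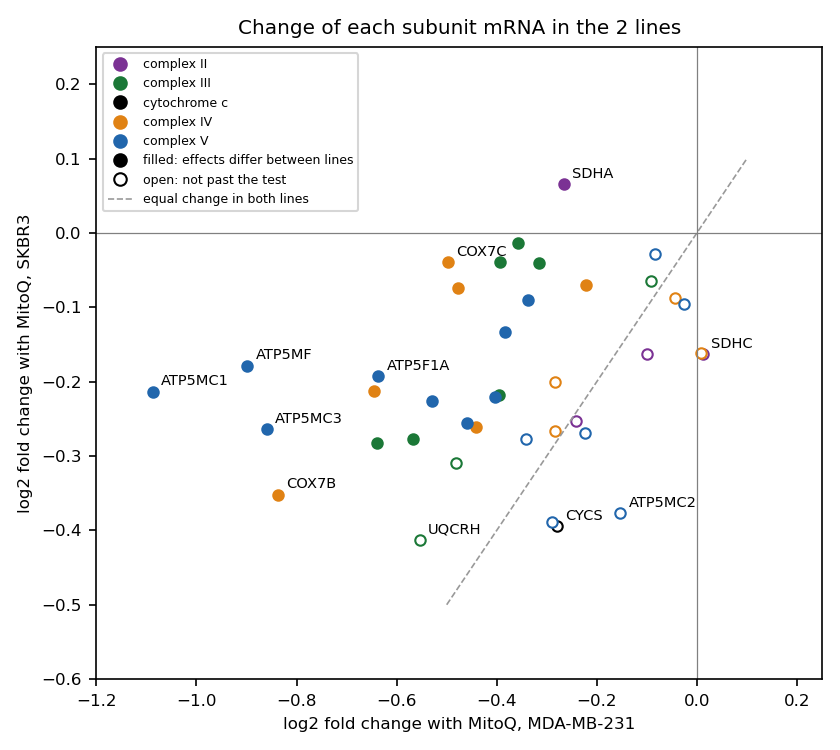
Log2 fold change of each subunit mRNA with MitoQ in MDA-MB-231 (horizontal axis) against SKBR3 (vertical axis), coloured by complex, with the dashed line marking equal change. Filled points are members whose changes differed between lines in the interaction test. ATP5MC1, ATP5MF, ATP5MC3 and COX7B lie farthest to the left, and ATP5MC2 is among the members on the other side of the line.

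The levels in the control groups also differed between the lines. In MDA-MB-231 controls 15 members were higher and 20 lower than in SKBR3 controls, against 44.4% and 42% of 16398 genes, so the members as a set were near the background. UQCRB, a small subunit of complex III at chromosome 8, 96225920 to 96235634, stood out, a choice made after its values were seen. It had 245, 242, 258, 238 and 260 CPM in MDA-MB-231 controls, against 44.8, 37.4 and 36.2 CPM in SKBR3 controls. The groups were far apart, and UQCRB was 6.24-fold higher in MDA-MB-231 (log2 2.64 ± 0.061, adjusted p = 7.95e-19). Next came UQCRQ (2.11-fold higher) and ATP5F1A (2.09-fold higher). In the other direction ATP5MF was 2.15-fold and CYCS 2.10-fold lower in MDA-MB-231 controls, and all 4 genes of complex II were lower, with a median of -0.65.

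Per kilobase of transcript, the lowest member was UQCRFS1 in both control groups, at 21.3 CPM per kilobase in MDA-MB-231 and 33.4 in SKBR3. The highest was UQCRB in MDA-MB-231 controls, at 385 CPM per kilobase, and ATP5MF in SKBR3 controls, at 762. UQCRFS1 and ATP5MF have the longest and the shortest median transcript of the members, 3475 and 323 bases, so these ranks depend on that length. Which annotated transcripts the cells express was not tested. By plain CPM UQCRFS1 averaged 74.1 in MDA-MB-231 controls and 116 in SKBR3 controls, where the lowest were ATP5F1D (43.8) and ATP5ME (35.1). COX6C, COX7C, ATP5MC3 and ATP5PD were the 4 members that did not pass the test between the lines, with differences between -0.074 and 0.023. ATP5MC3, with the smallest p in the interaction, averaged 158 ± 4.86 CPM in MDA-MB-231 controls (SD, n = 5) and 163 ± 8.43 CPM in SKBR3 controls (SD, n = 3). The calls nearest the threshold were those of ATP5ME, CYC1, UQCRC1 and ATP5F1E (adjusted p = 0.0359, 0.0316, 0.0288 and 0.0242), which were made in 6, 12, 12 and 8 of 16 other settings.

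**Figure D5:**
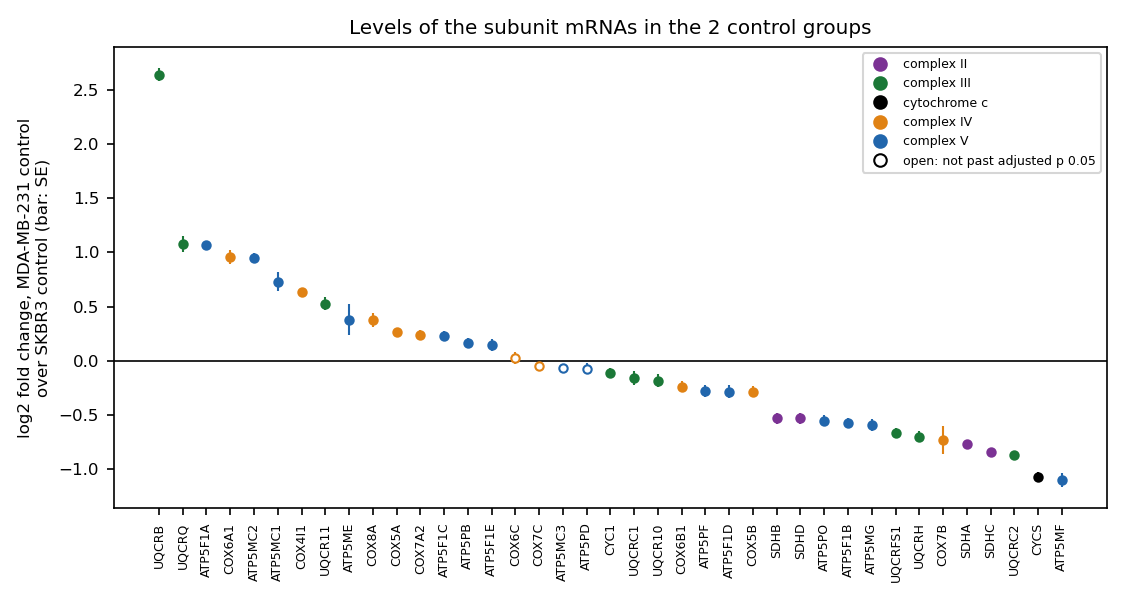
Log2 fold change of each subunit mRNA in MDA-MB-231 controls over SKBR3 controls, ordered by size and coloured by complex, with bars for the SE and open points for members that did not pass an adjusted p of 0.05. UQCRB stands at 2.64, apart from the others, which run from 1.08 (UQCRQ) to -1.10 (ATP5MF).

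The partners of these proteins made in mitochondria were set beside them. Of the 6 mRNAs of complexes III to V encoded in mitochondrial DNA, all 6 fell in MDA-MB-231 with a median of -1.98, and 2 fell in SKBR3 with a median of -0.36. The largest fall in MDA-MB-231 was that of MT-CO3, a core subunit of complex IV, at 747 ± 94.3 CPM with MitoQ and 5504 ± 410 CPM in controls (-2.86 ± 0.080). The largest difference in SKBR3, MT-ATP8, did not pass the test (-0.75 ± 0.25, adjusted p = 0.101). The 13 mitochondrial mRNAs took 0.891% to 1.24% of counts in MDA-MB-231 MitoQ libraries and 3.10% to 3.68% in controls, and 5.15% to 5.26% in SKBR3 MitoQ libraries and 5.67% to 7.08% in controls. With these mRNAs left out before scaling, 32 nuclear members were again lower in MDA-MB-231 and 22 in SKBR3. The interaction did change, to 17 members lower and 1 higher, from 22 and 0 with them in.

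Other subunits and isoforms of the same complexes moved less uniformly. Of 9 tested in MDA-MB-231, 5 fell and 1 rose. The largest fall was that of COX7B2, a low mRNA at 0.798 ± 0.228 CPM with MitoQ and 1.58 ± 0.215 CPM in controls (-0.95 ± 0.21, adjusted p = 0.000664). Of the ATP synthase, ATP5IF1, its inhibitor, fell in both lines (-0.64 ± 0.057 in MDA-MB-231 and -0.24 ± 0.079 in SKBR3), and DMAC2L, its coupling factor B, rose in MDA-MB-231 (0.65 ± 0.063). In SKBR3 2 of 8 tested fell, the other being COX7A2L (-0.16 ± 0.045), and the largest difference, that of COX6B2, did not pass (-0.69 ± 0.41). The examples ATP5IF1, DMAC2L and COX7A2L were chosen after their values were seen.

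Of 40 assembly factors of complexes II to V, 19 fell and 7 rose in MDA-MB-231, with a median of -0.14, and 13 fell and 1 rose in SKBR3, with a median of -0.13. COX19, which helps deliver copper to complex IV, rose most in MDA-MB-231, to 25.8 CPM with MitoQ against 14.2 CPM in controls (0.88 ± 0.061), and was the 1 factor that rose in SKBR3. SDHAF3, an assembly factor of complex II, had the largest change in SKBR3 (-0.63 ± 0.094). The nuclear subunits of complex I fell in 24 of 37 members and rose in 2 in MDA-MB-231 (median -0.30, largest change NDUFB3 at -0.71 ± 0.062), and fell in 19 and rose in none in SKBR3 (median -0.19, largest change NDUFB9 at -0.45 ± 0.047). Of 5 leukocyte markers, 1 passed the filter and was tested with MitoQ in MDA-MB-231 and 0 in SKBR3. Of 5 markers of fibroblasts or endothelium, 3 were tested in each line. None of those tested was called higher or lower, and none of the 10 genes averaged above 2.73 CPM in any group.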

How the data were processed

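RNA was sequenced in 16 libraries of 2 breast cancer lines. The authors deposited estimated counts per gene, made with Salmon on GRCh38 per the submitters' processing notes, which also name edgeR. Tool versions, annotation, gene summarisation and strand use are not given in the sources used here. All deposited values are whole numbers, so no rounding was needed. Of 35106 gene rows 35003 matched GENCODE release 29 by ID, the source of positions on GRCh38, transcript lengths and 31-base stretches.

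Genes passing filterByExpr were scaled by TMM factors and tested with the quasi-likelihood F test of edgeR 4.0.16 in R 4.3.3 (robust spread, two-sided, Benjamini-Hochberg adjustment over all genes tested, threshold 0.05). Unless another tool is named, each adjusted p comes from that test. The SE was taken as the absolute log2 fold change divided by the root of F. Within each line MitoQ libraries were tested against controls, and the interaction used all 16 libraries. Each fit had its own filter and scaling factors, so interaction values need not equal the difference of the changes per line. CPM levels use 1 set of TMM factors over all libraries. CPM per kilobase divides by the median length of protein-coding transcripts. Where a gene has 0 counts, up to 3 counts are allowed, 0.102 to 0.204 CPM, for counting error only. No 2 replicates agreed within sampling noise (chi-square per degree of freedom at least 2.58).

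Alternatives were other size factors, plain totals, DESeq2 1.42.0, limma 3.58.1 voom with quality weights, other filters, a stricter adjusted p of 0.01, a minimum change of 1.2-fold, mitochondrial mRNAs left out, pseudogene rows added to their gene, a replicate block, a single fit, thinned counts and each library left out. The tests were tried on 1 simulated set of counts per comparison. Of 1.25-fold changes, 56.7% were recovered in MDA-MB-231, 43.3% in SKBR3, 19.4% in the interaction and 50.7% between controls. False calls made up 4.29%, 7.43%, 2.08% and 5.52% of all calls, in the same order. The members and lists were chosen with earlier results of these data known. Values per library are given for the 3 members with the largest change in each line, the smallest p of each complex in MDA-MB-231, the genes of the c subunit, and the 3 smallest p in each direction of the interaction; UQCRB and ATP5F1A were added after their values were seen. Promoter windows come from RefSeq on GRCh38.p14, and the motifs were chosen with the results known. An assembly factor and an isoform from the lists were not analysed here.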

Additional observations from a re-analysis of the deposited data

Results flagged for a closer look

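In groups of 5 libraries, 78 groups of member values were searched for a library far from the other libraries of its group, and 3 were found, where chance gives about 1 in 20 groups. COX7B was at 42.1 CPM in MDA-MB-231 MitoQ 2, against 50.4 to 52.8 CPM in the other MitoQ libraries. UQCRC2 was at 80.2 CPM in the same library, against 85.1 to 86.6 CPM in the others. SDHD was at 67.9 CPM in MDA-MB-231 control 5, against 58.8 to 60.9 CPM in the other controls.

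For 22 members the change with MitoQ differed between the lines in the interaction test. The difference (log2, MDA-MB-231 minus SKBR3) was taken from the joint fit of all 16 libraries, not from the changes given per line. It was largest among the ATP synthase genes ATP5MC1 (-0.92), ATP5MF (-0.76) and ATP5MC3 (-0.64). The other members of complex V were ATP5F1A (-0.49), ATP5PB (-0.35), ATP5F1B (-0.29), ATP5F1E (-0.29), ATP5F1C (-0.25) and ATP5MG (-0.23). In complex IV they were COX7B (-0.53), COX7C (-0.50), COX6B1 (-0.48), COX8A (-0.45), COX7A2 (-0.22) and COX4I1 (-0.19). In complex III they were UQCRFS1 (-0.40), UQCRQ (-0.40), CYC1 (-0.39), UQCR10 (-0.34), UQCR11 (-0.32) and UQCRC2 (-0.22), and in complex II SDHA (-0.37). The calls were not equally stable. Of 25 other settings with the same threshold and no minimum change, UQCR11 was called in 10, COX4I1 in 12, UQCR10 and ATP5MG in 14, ATP5F1E in 20 and COX7A2 in 21, and UQCRQ, UQCRC2 and ATP5F1C in 24. The other 13 were called in all 25.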

How the results depend on the processing

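No member change called in the main or in an alternative run had the other sign in the other of the 2. Changes called in neither did change sign. Counted over members and settings, this happened 17 times in MDA-MB-231, 16 in SKBR3, 37 in the interaction and 9 between controls. Over all genes, the interaction had more genes lower than higher in the main test, but 3446 higher and 2458 lower with plain library totals. In MDA-MB-231, the members lower numbered 31 with plain library totals, 33 with limma voom and 32 to 33 with single libraries left out, and 0 were higher throughout. Over all genes the counts there ranged from 4338 to 4876 higher and from 3958 to 4293 lower with single libraries left out. In SKBR3 15 to 22 members were lower with single libraries left out and 18 when 1 model was fitted to all libraries. Over all genes 1458 to 2576 were higher and 1107 to 1971 lower there, with the lowest counts of lower genes without MitoQ 2 (1107) and without control 2 (1383), and 1069 were lower in that model. A threshold of 0.01 left 1236 genes higher and 1200 lower in SKBR3.

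The test against a 1.2-fold change left 19 members lower in MDA-MB-231 (2491 genes higher and 1909 lower), 2 in SKBR3 (376 and 96) and 6 in the interaction (1256 and 1621). Between control lines it left 9 members higher and 13 lower in MDA-MB-231. In the interaction 14 members were lower with plain library totals, 17 with mitochondrial mRNAs left out, 18 with RLE size factors and 15 to 24 with single libraries left out. The members higher there, 0 in the main test, were 2 with plain library totals and with limma voom. They were 1 with RLE size factors, DESeq2, a filter at 1 CPM and mitochondrial mRNAs left out, and 0 to 1 with single libraries left out. The causes were not tested. Between the controls 13 to 15 members were higher and 18 to 21 lower with single libraries left out.

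Libraries with the same replicate number did not deviate together (correlations of -0.046 to 0.019), which shows no pairing but cannot exclude it with so few libraries. With the replicate number as a block, 32 members were lower in MDA-MB-231, 22 in SKBR3 and 21 in the interaction. Over all genes the block gave 2348 higher and 2410 lower in SKBR3, more than the 2076 and 2126 without it. It gave fewer in MDA-MB-231 (4343 and 4020, against 4574 and 4231) and in the interaction (2344 and 3072, against 2554 and 3269).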
